A study of Mus musculus with 8 samples.

Results

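Solute carriers are the membrane proteins that move sugars, amino acids, ions, metals, vitamins and other small molecules across the plasma membrane and the membranes of organelles. Their mouse genes carry symbols that begin with Slc and a family number. The genes described here were chosen by symbol and by measured level: those rows of the deposited table whose symbol begins in this way, without the Slc27a fatty acid transporters, and whose FPKM value reached at least 1 in at least 4 of the 8 libraries, with a missing value taken as 0. FPKM is the number of sequenced fragments of a gene per kilobase of its transcript, scaled to the fragments mapped in the library. The rule keeps 192 genes out of 288 Slc rows listed beside the 4 left-out Slc27a rows, and out of 15995 genes in the whole table. Of the other 96 Slc rows, 79 stayed below 1 FPKM in every library. The rule used the levels of all 8 libraries, whatever their genotype, and a gene can pass it through 1 genotype alone: 4 genes, Slc16a14, Slc6a20a, Slc36a2 and Slc7a4, were at or above 1 FPKM in the 4 wild types and in no knockout.

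Newborn C57BL/6J mice gave the peeled epidermis for 8 libraries, 4 of ZFP750-/- animals, here called knockouts, and 4 of wild-type (WT) animals. Zfp750 encodes a zinc finger protein of differentiating keratinocytes, and the study asks what it does for lipids and the barrier of the skin. All samples were treated alike with cold trypsin-EDTA before peeling. The labels do not say whether a library holds 1 pup or several, nor which part of the gene was removed, so p-values measure the spread between these samples. Libraries are numbered in the order of the series: knockouts 1 and 2 carry the title codes 11 and 14, knockouts 3 and 4 the code 44, wild types 1 and 2 the code 44, and wild types 3 and 4 the codes 14 and 11. The labels do not say what the code stands for. The titles of knockouts 1 and 2 both carry the number KO1, with different codes, and they are taken here as separate samples because the series lists them as such.

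In the epidermis no blood vessels are present, and keratinocytes take glucose, amino acids, zinc, iron and vitamins from the tissue fluid beneath. Carriers work by facilitated diffusion down a gradient, by exchange, or coupled to sodium or protons. Some families face the outside, and others serve lysosomes, the Golgi apparatus or mitochondria. Zinc carriers of the Slc39 family bring zinc into the cytosol and those of the Slc30 family take it out, and inherited loss of some of them causes skin disease.

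Zfp750 itself had levels of 2.68, 2.31, 2.29 and 1.53 FPKM in the knockouts, in the order 1 to 4, and of 119, 111, 81.6 and 93.7 FPKM in the wild types, and values of all 8 libraries are given in this order throughout. Keratinocyte markers (Krt5, Krt14, Dsp, Perp and Krtdap) summed to 15535 to 17166 FPKM in the knockouts and 12286 to 15995 FPKM in the wild types, with Krtdap the largest part. Of the 5, Krt14, a keratin of basal keratinocytes, was called higher, at 3330, 2202, 2758 and 1112 against 417, 613, 1215 and 1253 FPKM (1.46 ± 0.43, limma adjusted p = 0.0464), with knockout 4 within the wild types. The other 4 were not called, and its part in the carriers' values was not tested. Markers of Langerhans cells and other myeloid cells were low in the knockouts: 8 of 10 tested genes were called lower and none higher, and their sum was 9.11 to 16.4 FPKM against 69.5 to 112 FPKM. In the T cell list 2 of 3 tested genes were lower (sums of 1.44 to 4.84 against 9.19 to 11.9 FPKM), and in the Merkel cell list Chga, the 1 tested gene, was lower. The others of the Merkel cell list, Krt20, Atoh1, Isl1 and Piezo2, stayed below 1 FPKM in every library. They overlapped between the genotypes, so the list as a whole did not follow Chga. None of 6 melanocyte and 4 tested fibroblast markers was called. Fibroblast markers summed to 188 FPKM in knockout 2 and to 22.6 to 90.0 FPKM in the other libraries, and endothelial markers summed to at most 0.589 FPKM in any library. Skeletal muscle markers summed to 36.9 FPKM in wild type 3 and to at most 3.81 FPKM elsewhere. In bulk samples fewer cells of a type and less RNA per cell cannot be told apart. Solute carrier genes took 0.547% to 0.641% of the summed FPKM of each library.

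Across the 192 genes, 44 (22.9%) differed between the genotypes at an adjusted p under 0.05. The test was limma on log2(FPKM + 1), with Benjamini-Hochberg adjustment over the 11395 genes tested, of which 15.7% were called. Of the 44 genes, 19 were higher in the knockouts, where 6.72% of all tested genes were higher, and 25 were lower, where 8.94% of all were lower. The median log2 change was -0.01 for the solute carriers and 0.01 for all tested genes. All libraries of one genotype lay above all of the other for 54 solute carriers (28.1%), and for 21.3% of all tested genes. Among the 156 members at or above 1 FPKM in all 8 libraries, 37 (23.7%) were called. Of the 183 with at least 2 libraries of each genotype at that level, 39 (21.3%) were called, 18 higher and 21 lower. The number called higher was 11 without knockout 3 and 12 without wild type 1. Of the 44 calls, 31 were kept when each library was left out in turn. Xist, which coats an inactive X chromosome, was high in knockouts 1 to 3 and wild type 3 and low in the other 4 libraries, and with log2(Xist + 1) as a covariate 31 carriers were called, 10 of them higher. Of the 44, the 14 not called with this covariate were Slc1a4, Slc3a2, Slc5a9, Slc7a1, Slc9a9, Slc15a4, Slc16a3, Slc25a10, Slc25a48, Slc34a2, Slc35b1, Slc35f6, Slc36a4 and Slc52a3.

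Per length of transcript, the most abundant carrier of wild-type epidermis was Slc25a5, the mitochondrial ADP/ATP exchanger, at 257 ± 19.2 FPKM (mean ± SD, n = 4), a gene with processed copies elsewhere in the genome whose share of the reads is unknown here, followed by the mitochondrial phosphate carrier Slc25a3 at 149 ± 7.68. Next came Slc46a2, a carrier of the folate carrier family, at 138 ± 10.1 and the amino acid carriers Slc38a4 at 117 ± 10.2 and Slc38a2 at 81.1 ± 21.2 FPKM. The ranges of mean ± SD of Slc25a3 and Slc46a2 overlapped, and no other neighbours in this order did. In the knockouts Slc25a5 and Slc25a3 were again first and second. Slc2a1 moved from place 17 to 4, Slc16a1 from place 42 to 6 and Slc39a6 from place 53 to 9, while Slc46a2 went from place 3 to 13.

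**Figure D1:**
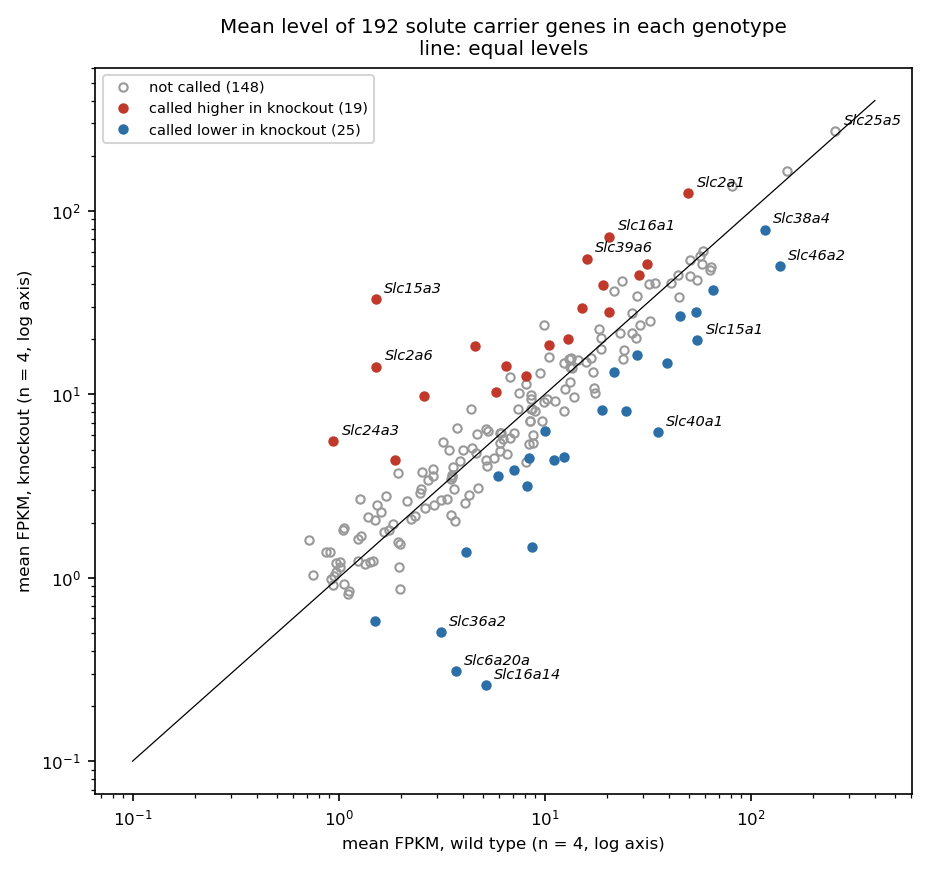
Mean FPKM of the 192 solute carrier genes in 4 wild-type libraries (horizontal, log axis) and 4 knockout libraries (vertical, log axis), 1 point per gene, with the line of equal levels. The 148 open points were not called, 19 filled points above the line were called higher and 25 below it lower. Slc15a3 and Slc2a6 lie farthest above the line, and Slc16a14, Slc6a20a and Slc40a1 far below it.

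Carriers of peptides held the largest change. Slc15a3, which moves histidine and short peptides across lysosomal membranes, had 22.5, 33.9, 36.3 and 40.3 FPKM in the knockouts against 1.38, 1.70, 1.32 and 1.66 FPKM in the wild types. Each knockout was above each wild type, and the log2 change, given throughout as knockout minus wild type with its standard error (SE), was 3.74 ± 0.18 (limma adjusted p = 3.87e-06). Its lysosomal relative Slc15a4 rose as well, from 5.81 ± 1.09 to 10.3 ± 1.01 FPKM (SD, n = 4 each), a change of 0.74 ± 0.15 (limma adjusted p = 0.00832). Slc15a1, which takes up dipeptides and tripeptides with protons at the cell surface, went the other way. Its level was 17.0, 18.8, 19.8 and 23.5 FPKM in the knockouts and 66.9, 42.9, 64.7 and 45.6 FPKM in the wild types, without overlap, and it fell by 1.41 ± 0.17 on the log2 scale (limma adjusted p = 6.15e-04). Slc15a2, the other surface carrier of the family, overlapped between the genotypes, at 5.72 ± 2.54 and 6.31 ± 1.30 FPKM (limma adjusted p = 0.711). Slc15a3 lies on chromosome 19 from 10839727 to 10859362 on the plus strand (GRCm38), and Tmem132a on the other strand shares 28.1% of its annotated exon bases. Tmem132a was also higher, at 59.9 ± 10.8 against 23.99 ± 11.7 FPKM (SD, n = 4 each, limma adjusted p = 0.0170), and its part in the Slc15a3 value was not tested, since no label says whether the counting used strand.

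**Figure D2:**
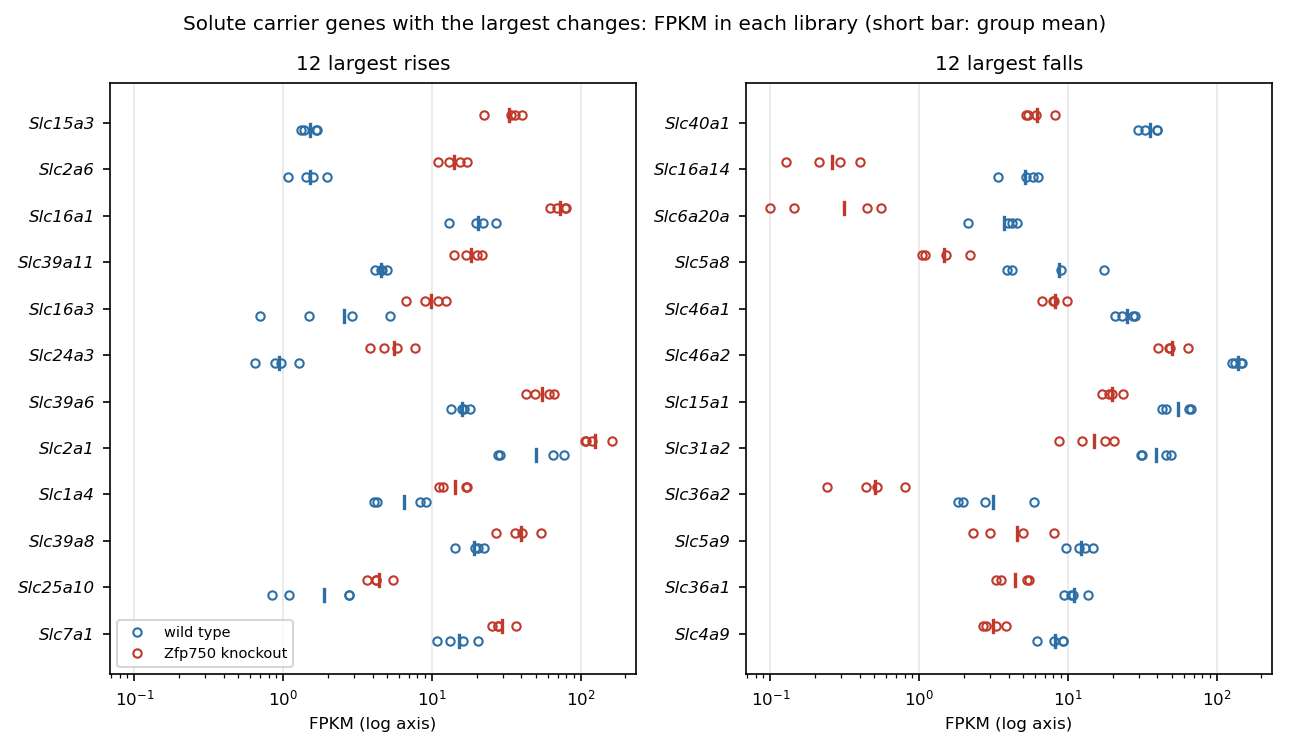
FPKM in each of 4 knockout (red) and 4 wild-type (blue) libraries on a log axis for the 12 called solute carrier genes with the largest rises (left) and the 12 with the largest falls (right), with short bars at the group means. In all 24 genes the points of one genotype lie entirely on one side of those of the other. The genes were chosen as the largest called changes in these same libraries, so this follows largely from the choice. Of all tested genes 21.3% did not overlap.

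Among sugar carriers 2 of 17 rose, 1 fell and 14 were not called, with a median log2 change of 0.02. The share called was 17.6%, beside 15.7% of all tested genes. Slc2a6, a glucose carrier family member known from lysosomal membranes, stood at 12.98, 17.2, 11.1 and 15.5 FPKM in the knockouts and at 1.59, 1.09, 1.99 and 1.42 FPKM in the wild types. The groups were far apart, and the change was 2.59 ± 0.18 (limma adjusted p = 2.16e-05). Slc2a1, the main glucose carrier of keratinocytes, had 120.0, 107, 163 and 109 FPKM in the knockouts and 28.7, 65.5, 27.8 and 77.2 FPKM in the wild types. It rose by 1.43 ± 0.33 (limma adjusted p = 0.0182), with wild types 2 and 4 nearer to the knockouts than wild types 1 and 3. That call was lost without knockout 3 (adjusted p = 0.0569) or without wild type 1 (adjusted p = 0.0521). Slc5a9, a sodium-coupled carrier of mannose and related sugars, fell from 12.3 ± 2.11 to 4.58 ± 2.59 FPKM (-1.36 ± 0.29, limma adjusted p = 0.0133). The sodium-coupled glucose carrier Slc5a1 was at 10.8 ± 3.93 against 17.3 ± 4.01 FPKM and missed the threshold (limma adjusted p = 0.0906). Slc2a3, the neuronal glucose carrier, did not reach 0.417 FPKM in any library.

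Lactate and other monocarboxylates leave and enter cells through the Slc16 family, whose first members work with the partner protein Bsg. Of 10 carriers of monocarboxylates and other acids, 2 rose and 2 fell, with a median log2 change of 0.22. That is 40% called, beside 15.7% of all tested genes. Of the 2 that fell, Slc16a14 passed the level rule through the wild types alone. Slc16a1, the widespread lactate carrier, stood at 62.4, 69.0, 78.6 and 80.0 FPKM in the knockouts against 13.1, 22.2, 19.9 and 27.1 FPKM in the wild types, a change of 1.81 ± 0.20 (limma adjusted p = 3.26e-04). Slc16a3, the lactate exporter of glycolytic cells, had 10.99, 8.996, 12.5 and 6.72 against 0.703, 2.92, 1.49 and 5.22 FPKM, with no overlap but a wide spread among wild types (1.73 ± 0.37, limma adjusted p = 0.0121). Like Slc2a1, it was higher in wild types 2 and 4 than in 1 and 3. Bsg itself was at 143 ± 13.03 and 134 ± 12.7 FPKM (SD, n = 4 each, limma adjusted p = 0.651). Txnip, a protein that restrains glucose uptake, stood at 62.1 ± 28.9 against 145 ± 60.2 FPKM (limma adjusted p = 0.0652).

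The orphan carrier Slc16a14 stood at 0.213, 0.128, 0.403 and 0.295 FPKM in the knockouts and at 5.22, 5.799, 6.29 and 3.42 FPKM in the wild types, so the knockouts were all below 1 FPKM, and it fell by 2.28 ± 0.19 (limma adjusted p = 6.22e-05). Slc5a8, which takes up short monocarboxylates with sodium, had 2.20, 1.10, 1.04 and 1.52 against 9.04, 3.93, 17.5 and 4.18 FPKM. It fell by 1.78 ± 0.40 (limma adjusted p = 0.0150), and wild type 3, which also held the skeletal muscle markers, was the highest library. Without wild type 3 the change was -1.39 and was still called (limma adjusted p = 0.0162). On chromosome 11, Slc16a3 lies 550 kb and Slc25a10 1012 kb from Zfp750, and both were called higher, while Slc38a10, at 1360 kb, was not (limma adjusted p = 0.554).

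The stretches just before the start sites of 4 of these genes are shown because they include the largest changes in each direction among carriers for which the RefSeq promoter table (GRCm38.p6) held a window. Of the 192 genes, 143 matched by symbol, 34 of them called. Each line gives the 250 bases before the start, 5′ to 3′ on the gene's strand, with motif matches in capitals.
Slc2a6: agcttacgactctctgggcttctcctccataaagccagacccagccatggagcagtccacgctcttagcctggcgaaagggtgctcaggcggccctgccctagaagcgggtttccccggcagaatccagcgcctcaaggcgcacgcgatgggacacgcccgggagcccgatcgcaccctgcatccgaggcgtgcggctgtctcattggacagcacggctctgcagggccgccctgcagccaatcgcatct
Slc16a1: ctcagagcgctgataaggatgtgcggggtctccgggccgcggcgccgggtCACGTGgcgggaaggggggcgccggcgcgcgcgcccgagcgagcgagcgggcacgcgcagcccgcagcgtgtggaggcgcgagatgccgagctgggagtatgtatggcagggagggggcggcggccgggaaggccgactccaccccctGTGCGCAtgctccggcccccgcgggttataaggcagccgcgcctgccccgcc
Slc16a14: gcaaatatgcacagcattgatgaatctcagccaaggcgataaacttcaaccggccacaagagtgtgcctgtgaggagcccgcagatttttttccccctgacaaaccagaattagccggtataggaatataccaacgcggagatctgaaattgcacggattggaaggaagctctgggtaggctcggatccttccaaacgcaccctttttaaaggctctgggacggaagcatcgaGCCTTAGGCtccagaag
Slc6a20a: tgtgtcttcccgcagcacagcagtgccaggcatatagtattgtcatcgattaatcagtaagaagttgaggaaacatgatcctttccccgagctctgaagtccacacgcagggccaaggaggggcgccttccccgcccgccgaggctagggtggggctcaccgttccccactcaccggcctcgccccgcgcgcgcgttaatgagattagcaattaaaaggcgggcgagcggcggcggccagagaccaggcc
The windows lie at chr2:27027999-27028248 (minus strand), chr3:104638414-104638663 (plus), chr1:84935084-84935333 (minus) and chr9:123678833-123679082 (minus). The motifs searched on both strands were CCNNAGGC, described for the human counterpart ZNF750, the AP-1 motif TGANTCA, the E-box CACGTG, and TGCACNC and TGCGCNC, forms of the core of the metal response element. In the Slc16a14 window 2 overlapping matches of CCNNAGGC, 1 on each strand, begin 17 and 16 bases before the start, and the capitals mark their union. The Slc16a1 window holds CACGTG 200 bases before the start and 1 TGCGCNC match on the minus strand at 52 bases. The windows of Slc2a6 and Slc6a20a hold none of these motifs. Over all 27025 genes in the table CCNNAGGC was found in 22.7% of genes and over the 143 carriers in 29.4%, against 7 of 17 called higher (41.2%) and 4 of 17 called lower (23.5%) with a window. CACGTG was found in 6.86% of all genes and 15.4% of the carriers, in 3 of the 17 called higher and in 1 of the 17 called lower. TGANTCA was found in 7.82% of all genes, 6.99% of the carriers and in 1 gene of each called set. TGCACNC was in 11.8% of all genes, 17.5% of the carriers and in 5 genes of each called set, and TGCGCNC in 14% of all genes, 18.9% of the carriers, in 2 called higher and 1 called lower.

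Metal carriers moved in both directions. Of 22, 3 rose, 5 fell and 14 were not called, with a median log2 change of -0.09. That is 36.4% called, beside 15.7% of all tested genes. All 3 that rose belong to Slc39, the family that brings zinc and related metals into the cytosol. Slc39a11 stood at 14.02, 16.8, 20.2 and 21.9 FPKM in the knockouts and at 4.65, 4.97, 4.12 and 4.53 FPKM in the wild types, which lay close together (1.77 ± 0.15, limma adjusted p = 9.13e-05). Slc39a6 had 42.9, 49.5, 61.1 and 66.4 against 13.5, 16.4, 15.99 and 17.9 FPKM (1.71 ± 0.16, limma adjusted p = 1.16e-04). Slc39a8, which also carries manganese, had 27.2, 36.1, 40.4 and 54.1 against 22.5, 20.3, 14.2 and 19.6 FPKM (0.98 ± 0.21, limma adjusted p = 0.0132). In all 3 genes the knockouts with code 44 were above the knockouts with codes 11 and 14, and every knockout was above every wild type. Elp2, on the strand opposite Slc39a6, and Cog1, opposite Slc39a11, share no exon bases with them and were not called (limma adjusted p = 0.0814 and 0.694).

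The surface zinc importer Slc39a2 fell, from 54.4 ± 4.65 to 28.2 ± 3.53 FPKM (-0.93 ± 0.12, limma adjusted p = 8.11e-04). Slc30a1, which exports zinc from the cell, had 24.2, 28.9, 28.4 and 26.1 against 49.2, 38.7, 53.5 and 40.5 FPKM and fell by 0.73 ± 0.13 (limma adjusted p = 0.00528). It was the 1 gene called among 6 of the Slc30 family (16.7%, beside 15.7% of all tested genes). Slc30a4, the family's member next in level to Slc30a1 in wild type, stood at 44.7 ± 7.01 and 44.3 ± 2.11 FPKM (0.00, limma adjusted p = 0.990). Slc39a4, the zinc importer of the intestine, was at most at 0.340 FPKM in any library. The zinc-binding metallothioneins Mt1, Mt2 and Mt4 were higher in the knockouts. Mt1 stood at 487 ± 137 against 174 ± 22.3 FPKM and Mt2 at 391 ± 243 against 74.2 ± 17.1 FPKM (limma adjusted p = 0.00179 and 0.00911). Mt2 was at 693 FPKM in knockout 1 and at 134 FPKM in knockout 4, and the highest wild type had 96.8 FPKM. Mt4 stood at 79.3 ± 29.8 against 3.38 ± 2.96 FPKM (limma adjusted p = 1.95e-04). Mtf1, the zinc-sensing factor, was not called (limma adjusted p = 0.226).

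The iron exporter and both copper carriers fell. Slc40a1, ferroportin, the exporter of iron from cells, stood at 5.39, 6.08, 8.20 and 5.25 FPKM in the knockouts and at 39.5, 33.2, 39.5 and 29.4 FPKM in the wild types. It fell by 2.34 ± 0.16 (limma adjusted p = 2.32e-05), the largest fall of the 192 genes on the log2(FPKM + 1) scale. With a pseudocount of 0.1 Slc16a14 (-3.90) and Slc6a20a (-3.34) fell further than Slc40a1 (-2.50), and with 0.5 Slc16a14 did (-2.89 against -2.43). Macrophages also express ferroportin, and the myeloid marker sums given above were lower in the same libraries (Ctss at 0.411 to 0.826 against 12.96 to 21.7 FPKM). Their part in the Slc40a1 value was not tested. Slc11a1, a metal carrier of macrophage phagosomes, was at most at 0.152 FPKM in the knockouts and at 0.402 to 0.839 FPKM in the wild types, below the level rule. Slc11a2, which takes up iron with protons, stood at 20.2 ± 2.26 against 27.8 ± 5.86 FPKM (limma adjusted p = 0.105). Slc31a1, the copper importer, had 13.6, 15.4, 16.6 and 20.1 against 29.6, 29.2, 26.0 and 27.4 FPKM (-0.75 ± 0.13, limma adjusted p = 0.00469). Slc31a2, its endosomal relative, had 8.73, 12.5, 17.8 and 20.5 against 49.1, 45.5, 30.9 and 31.5 FPKM (-1.38 ± 0.26, limma adjusted p = 0.00693). The genes are neighbours on chromosome 4, Slc31a2 from 62262562 to 62298411 and Slc31a1 from 62360727 to 62391769, both on the plus strand (GRCm38).

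**Figure D3:**
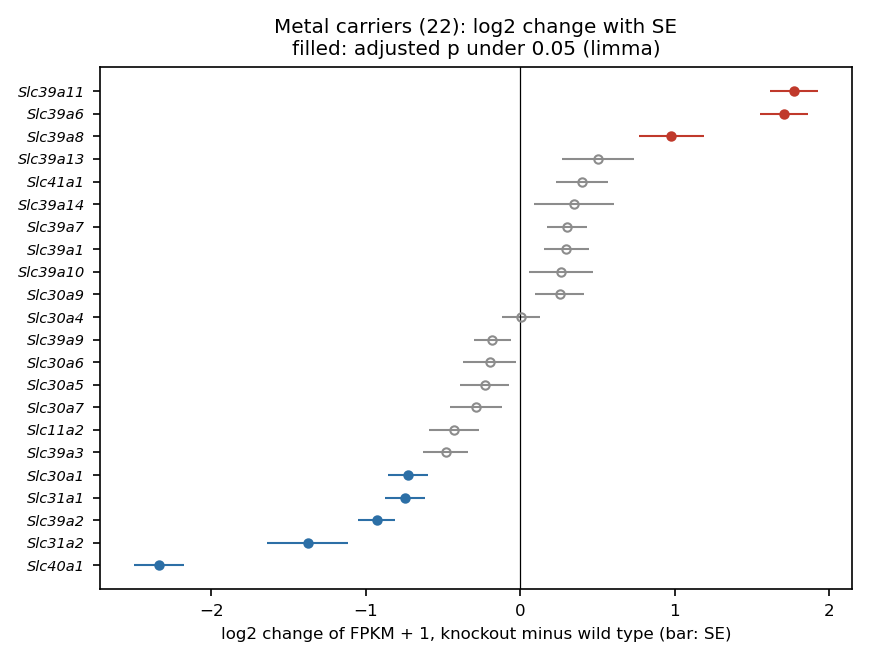
Log2 change of FPKM + 1, knockout minus wild type, with its SE for each of the 22 metal carriers, filled where limma's adjusted p was under 0.05. Slc40a1 lies lowest at -2.34, and Slc39a11, Slc39a6 and Slc39a8 are the 3 filled points above 0.

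The class of vitamin and haem carriers, assigned mostly by family, was called in 1 direction: 5 of 10 fell, none rose, and the median log2 change was -0.56. Slc46a2 and Slc46a3 were counted in it with their family, not for a shown vitamin or haem substrate. Of all tested genes 8.94% were called lower and 6.72% higher. All 3 genes of the Slc46 family fell. Slc46a2, which in skin brings fragments of bacterial cell wall into keratinocytes, stood at 40.3, 48.8, 48.1 and 63.9 FPKM in the knockouts and at 149, 132, 145 and 128 FPKM in the wild types. It fell by 1.46 ± 0.14 (limma adjusted p = 1.65e-04), and the knockouts reached at most 63.9 FPKM where the lowest wild type had 128. Slc46a1, a proton-coupled carrier of folate and haem, had 6.68, 7.93, 8.01 and 9.92 against 27.3, 28.2, 23.1 and 20.7 FPKM (-1.50 ± 0.15, limma adjusted p = 1.88e-04). Slc46a3, of lysosomes, fell from 4.13 ± 0.939 to 1.37 ± 0.490 FPKM (-1.11 ± 0.20, limma adjusted p = 0.00472). Slc48a1, which takes haem out of lysosomes, fell from 21.8 ± 1.73 to 13.2 ± 2.06 FPKM (-0.70 ± 0.14, limma adjusted p = 0.00797). The riboflavin carrier Slc52a3 fell from 7.08 ± 2.41 to 3.87 ± 0.260 FPKM (limma adjusted p = 0.0416), a call kept only without knockout 4 or wild type 4 and lost without each of the other 6 libraries (adjusted p of 0.0543 to 0.0994). The thiamine carrier Slc19a2, among the 10 most abundant carriers of wild type, stood at 57.0, 68.7, 39.9 and 32.7 FPKM in the knockouts and 63.8, 59.4, 69.4 and 64.1 FPKM in the wild types (limma adjusted p = 0.226). Other vitamin carriers, Slc19a1, Slc5a6, Slc23a2 and Slc52a2, were not called, with log2 changes of 0.37, 0.21, -0.15 and 0.04.

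Of 29 amino acid carriers 3 rose, 6 fell and 20 were not called, with a median log2 change of -0.13. The share called was 31%, beside 15.7% of all tested genes. Among the 6 that fell, Slc6a20a, Slc36a2 and Slc7a4 passed the level rule through the wild types alone, so they could hardly have been counted as rises. The Slc36 family, which moves small amino acids with protons and sits in part on lysosomes, fell in all 3 of its members. Slc36a1 stood at 3.58, 3.29, 5.31 and 5.44 FPKM in the knockouts and at 10.8, 10.4, 13.7 and 9.37 FPKM in the wild types (-1.17 ± 0.18, limma adjusted p = 0.00253). Slc36a2 had 0.240, 0.525, 0.443 and 0.808 against 2.79, 1.83, 5.89 and 1.98 FPKM (-1.37 ± 0.28, limma adjusted p = 0.00991), again with wild type 3 the highest library, and without wild type 3 it was still called (-1.09, limma adjusted p = 0.00798). Slc36a4 fell from 10.03 ± 0.539 to 6.31 ± 1.18 FPKM (-0.61 ± 0.14, limma adjusted p = 0.0192), a call lost without knockout 3 (adjusted p = 0.0561) or wild type 1 (adjusted p = 0.0623).

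Slc6a20a, a carrier of proline, was low in the knockouts, at 0.446, 0.554, 0.144 and 0.0990 FPKM against 4.53, 4.22, 3.96 and 2.15 FPKM in the wild types, and fell by 1.83 ± 0.22 (limma adjusted p = 5.16e-04). Slc38a4, the most abundant amino acid carrier of wild type, had 79.8, 81.9, 81.6 and 73.1 against 127, 117, 103 and 120.3 FPKM. The knockouts lay close together and all below the wild types (-0.56 ± 0.10, limma adjusted p = 0.00604). Slc7a4 was below 1 FPKM in each knockout and at 1.505 ± 0.436 FPKM in wild type (limma adjusted p = 0.0279), a call lost when knockout 1 or 2 or wild type 1 or 3 was left out (adjusted p = 0.0572 to 0.0770).

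Slc7a1, which takes up arginine and lysine, stood at 36.9, 27.8, 27.7 and 25.4 FPKM in the knockouts and at 13.3, 10.8, 16.2 and 20.6 FPKM in the wild types (0.93 ± 0.20, limma adjusted p = 0.0115). Slc1a4, an exchanger of small neutral amino acids including serine, had 11.8, 11.1, 17.2 and 17.0 against 4.11, 4.29, 8.38 and 9.15 FPKM (1.08 ± 0.26, limma adjusted p = 0.0237). Its call was lost without knockout 3 (adjusted p = 0.0696), wild type 1 (adjusted p = 0.0681) or wild type 2 (adjusted p = 0.0689). Slc3a2, the heavy subunit that carries several Slc7 exchangers to the cell surface, had 62.8, 46.5, 53.3 and 43.7 against 24.1, 28.3, 27.3 and 45.3 FPKM. Wild type 4 overlapped the knockouts, and the change of 0.73 ± 0.20 (limma adjusted p = 0.0347) was kept without knockout 4 or wild type 4 and lost without each other library (adjusted p = 0.0612 to 0.0993). None of its light subunits tested was called. The leucine exchanger Slc7a5 stood at 55.0, 38.9, 31.0 and 20.9 against 15.6, 17.0, 22.3 and 31.4 FPKM (0.70 ± 0.30, limma adjusted p = 0.155). The cystine exchanger Slc7a11 had 4.27 ± 1.69 against 8.10 ± 4.98 FPKM (limma adjusted p = 0.222), with wild type 1 the highest library at 15.4 FPKM, and Slc7a6 had 3.74 ± 0.701 against 1.95 ± 0.839 FPKM (limma adjusted p = 0.0623).

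**Figure D4:**
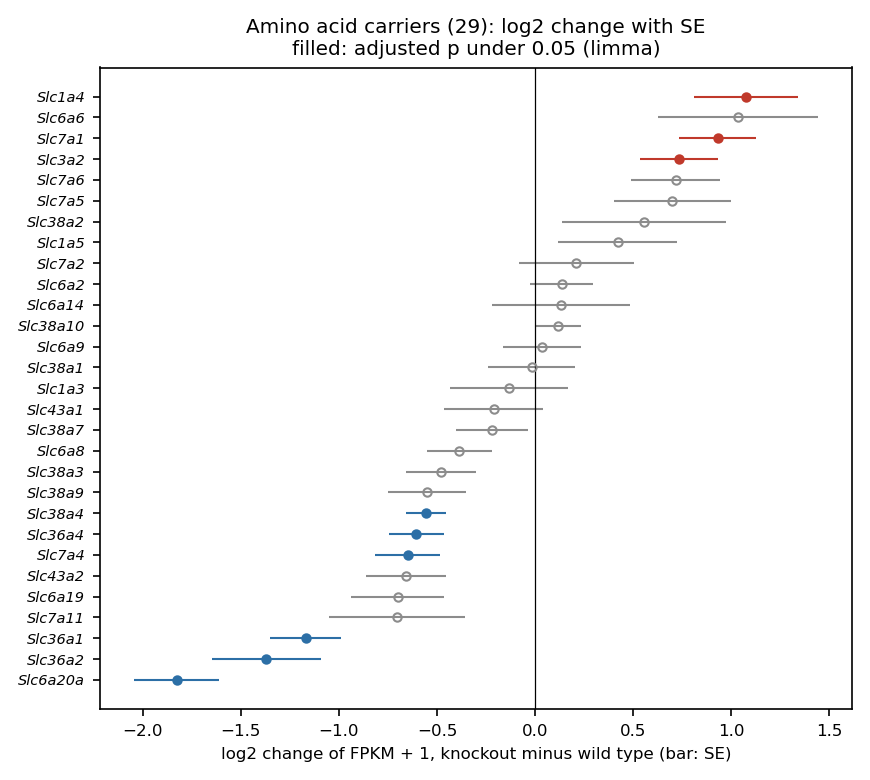
Log2 change of FPKM + 1, knockout minus wild type, with its SE for each of the 29 amino acid carriers, filled where limma's adjusted p was under 0.05. Slc6a20a, Slc36a2 and Slc36a1 lie lowest among the 6 filled points below 0, and Slc1a4, Slc7a1 and Slc3a2 are the 3 filled points above 0.

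In some carriers that were not called, the knockouts with title codes 11 and 14 lay above those with code 44. They are grouped here for that order, so their values by code are no test of it. In other carriers, Slc39a6 and Slc31a2 among them, the knockouts with code 44 were the higher, and neither order was counted. The taurine carrier Slc6a6 had 36.5, 32.9, 17.1 and 8.80 FPKM in the knockouts against 11.2, 5.99, 9.79 and 12.9 FPKM in the wild types. Knockouts 1 and 2, with codes 11 and 14, were far above all wild types, knockout 3 lay between, and knockout 4 lay within the wild types. The log2 change of Slc6a6 was 1.54 in codes 11 and 14 alone and 0.53 in code 44 alone. Each of these fits held 2 knockouts and 2 wild types, and the difference between the codes was not tested. The glutamine and alanine carrier Slc38a2 had 207, 195, 92.7 and 49.5 FPKM in the knockouts and 79.7, 59.2, 75.5 and 110.0 FPKM in the wild types. Its change was 1.13 in codes 11 and 14 and -0.02 in code 44. The phosphate carrier Slc20a1 was ordered alike, at 26.5, 17.5, 10.6 and 8.92 FPKM in the knockouts and 8.71, 9.26, 12.2 and 11.95 FPKM in the wild types. With the title code as a block, Slc6a6 (limma adjusted p = 0.0331) and Slc7a5 (0.00788) passed the threshold.

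Of 19 carriers of inorganic ions other than phosphate 1 rose, 3 fell and 15 were not called, with a median log2 change of 0.03. The share called was 21.1%, beside 15.7% of all tested genes. Slc24a3, which exchanges sodium for calcium and potassium, stood at 4.77, 3.86, 5.85 and 7.71 FPKM in the knockouts and at 0.651, 0.962, 1.28 and 0.881 FPKM in the wild types (1.73 ± 0.20, limma adjusted p = 4.71e-04), and 1 wild type alone reached 1 FPKM. Slc12a2, which brings sodium, potassium and chloride into the cell, had 8.01, 6.38, 8.01 and 10.3 against 23.6, 19.4, 13.9 and 18.9 FPKM (-1.12 ± 0.18, limma adjusted p = 0.00334). Stk39, a kinase that activates it, was also lower, at 1.31 ± 0.177 against 3.65 ± 0.861 FPKM (SD, n = 4 each, limma adjusted p = 0.00469). Other kinases listed with Stk39, Oxsr1, Wnk1 and Wnk4, were not called (limma adjusted p = 0.378, 0.0587 and 0.279). Their log2 changes were 0.16, -0.48 and 0.52. Wnk1 was the most abundant of these kinases, at 41.7 ± 7.07 against 58.2 ± 7.70 FPKM, lower in the knockouts without overlap. Oxsr1 stood at 19.1 against 17.0 FPKM. The anion exchanger Slc4a9 fell from 8.21 ± 1.43 to 3.16 ± 0.542 FPKM (-1.14 ± 0.16, limma adjusted p = 0.00160). Slc9a9, a sodium and proton exchanger of endosomes, fell from 8.40 ± 1.52 to 4.49 ± 1.46 FPKM (limma adjusted p = 0.0315), a call kept without knockout 4 or wild type 3 and lost without each other library (adjusted p = 0.0582 to 0.0928). Of 3 phosphate carriers 1 fell and none rose (33.3% called, beside 15.7% of all tested genes). The sodium phosphate carrier Slc34a2 had 28.1, 33.7, 41.0 and 45.8 against 68.3, 73.9, 63.2 and 57.0 FPKM and fell by 0.82 ± 0.16 (limma adjusted p = 0.00792), while Slc20a2 stood at 7.17 ± 1.68 against 8.53 ± 1.11 FPKM (limma adjusted p = 0.432).

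The Slc25 family of the inner mitochondrial membrane was the largest, with 35 genes. Here 4 rose, none fell and 31 were not called, a share of 11.4% beside the 15.7% of all tested genes, and the median log2 change was 0.01. Slc25a12, which exchanges aspartate for glutamate, stood at 11.4, 12.4, 12.5 and 14.1 FPKM in the knockouts and at 8.59, 8.70, 7.27 and 7.93 FPKM in the wild types (0.57 ± 0.12, limma adjusted p = 0.0108). Slc25a48 rose from 10.5 ± 1.62 to 18.5 ± 3.71 FPKM (0.74 ± 0.17, limma adjusted p = 0.0172), with the call lost without knockout 3 (adjusted p = 0.0549). The citrate carrier Slc25a1, which supplies the cytosol for lipid synthesis, had 36.0, 40.8, 48.7 and 53.4 against 27.9, 32.0, 23.9 and 31.3 FPKM (0.61 ± 0.15, limma adjusted p = 0.0240), a call lost without knockout 3 (adjusted p = 0.0711), wild type 1 (adjusted p = 0.0675) or wild type 3 (adjusted p = 0.0548). The dicarboxylate carrier Slc25a10 rose by 0.97 ± 0.26 (limma adjusted p = 0.0336), and this was lost without knockouts 1, 2 or 3 or wild types 1 or 2 (adjusted p = 0.0559 to 0.0951). Slc25a20, which brings acylcarnitines into mitochondria for oxidation, was at 6.28, 6.62, 5.202 and 3.42 FPKM in the knockouts and 8.44, 7.66, 9.66 and 7.94 FPKM in the wild types. Its groups did not overlap, yet it missed the threshold (-0.59 ± 0.19, limma adjusted p = 0.0612). Slc25a5 had 273 ± 36.8 FPKM in the knockouts (limma adjusted p = 0.720).

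The Slc35 family, placed as a whole in the nucleotide sugar class, had 2 genes of 20 that rose and none that fell. What each of its members carries, and in which membrane, was not examined. The share called was 10%, beside 15.7% of all tested genes, and the log2 changes of the 20 ran from -0.64 to 0.57. Slc35b1 rose from 20.4 ± 1.38 to 28.1 ± 2.26 FPKM (0.44 ± 0.11, limma adjusted p = 0.0224) and Slc35f6 from 12.9 ± 0.158 to 19.98 ± 4.49 FPKM (0.57 ± 0.16, limma adjusted p = 0.0394). The Slc35b1 call was lost when knockout 2 or 3 or wild type 1 or 4 was left out (adjusted p = 0.0524 to 0.0741), and that of Slc35f6 was kept without knockout 1 alone (adjusted p = 0.0562 to 0.101 without each other library). Among 16 carriers of organic ions 1 fell, a share of 6.25% beside 15.7% of all tested genes. This was Slc17a5, which exports sialic acid from lysosomes and went from 5.91 ± 1.05 to 3.57 ± 0.292 FPKM (limma adjusted p = 0.0276). Its call was kept without knockout 4 or wild type 2 and lost without each other library (adjusted p = 0.0513 to 0.0875). Slc22a15 had 2.03 ± 0.906 against 3.69 ± 0.643 FPKM and was not called (limma adjusted p = 0.0810). None of 3 nucleoside carriers was called by limma at an adjusted p of 0.05. Slc29a3, of lysosomes, was nearest at 6.53 ± 1.73 against 3.76 ± 0.886 FPKM (limma adjusted p = 0.0588), and Slc28a3 stood at 13.2 ± 2.21 against 17.2 ± 5.63 FPKM (0.391). The acetyl-CoA carrier Slc33a1 was not called either (limma adjusted p = 0.562). The rule also took in 3 genes named after carriers that are not carriers, the scaffold Slc9a3r1, Slc7a6os and Slc4a1ap, with log2 changes of -0.18, -0.08 and -0.05.

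**Figure D5:**
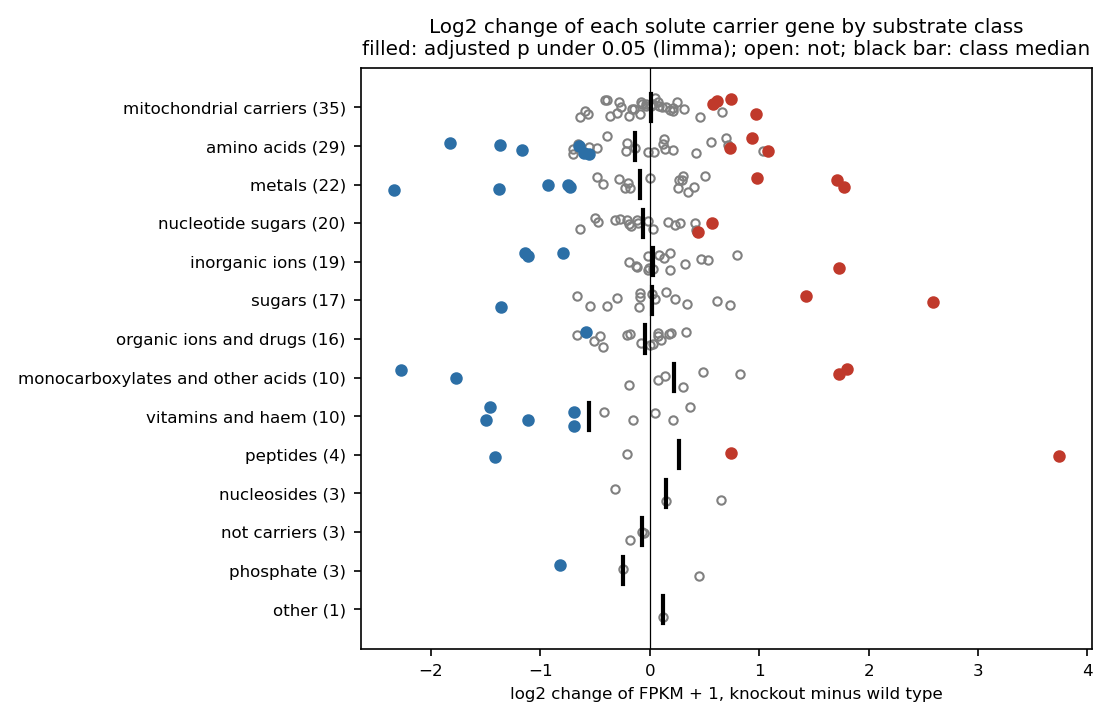
Log2 change of FPKM + 1, knockout minus wild type, of each of the 192 genes by substrate class (class size in brackets), filled where limma's adjusted p was under 0.05, with a black bar at the class median. Classes were assigned mostly by family, not by the shown substrate of each gene. Filled points of the vitamin and haem class all lie below 0, and those of the mitochondrial and nucleotide sugar classes all above 0. The metal, amino acid and monocarboxylate classes have filled points on both sides.

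Carriers known from melanocytes varied within each genotype, and the markers of those cells varied with them. Slc24a5, a pigment granule exchanger, had 4.77, 4.09, 4.30 and 0.5501 FPKM in the knockouts and 0.304, 1.64, 3.44 and 5.51 FPKM in the wild types. Slc45a2, a melanosome carrier, had 1.91, 2.01, 1.24 and 0.353 and 0.169, 0.656, 1.04 and 1.61 FPKM. Both were lowest in knockout 4 among the knockouts and in wild type 1 among the wild types. The summed level of the 6 melanocyte markers was 16.8 FPKM in knockout 4 and 77.2 to 89.8 FPKM in knockouts 1 to 3. It was 13.4 FPKM in wild type 1 and 30.3 to 81.4 FPKM in wild types 2 to 4. The part of melanocyte number in these values was not tested. Neither carrier was called (limma adjusted p = 0.752 and 0.528).

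Membrane transport genes without an Slc symbol (Slco carriers, ABC transporters, aquaporins, P-type ATPases and 38 carriers with other names) gave 30 calls among 86 tested, 11 higher and 19 lower, with a median log2 change of -0.14. That is 34.9% called, beside 22.9% of the solute carriers and 15.7% of all tested genes. In this list, too, the share was above that of all tested genes. The list was chosen with earlier results of these data known, so its share is a description and no test. The largest rise was that of Atp1b1, the beta subunit of the sodium pump, from 3.06 ± 1.07 to 30.4 ± 5.64 FPKM (2.97 ± 0.22, limma adjusted p = 3.29e-05). Of 22 ABC transporters 3 rose and 4 fell (31.8% called). Abcc3, an exporter of organic anions, rose by 2.24 ± 0.23 and Abca5, of lysosomes, fell by 2.19 (limma adjusted p = 1.99e-04 and 1.47e-04). Both tested aquaporins, channels for water and glycerol, were called: Aqp3, that of the basal epidermis, rose from 226 ± 17.4 to 357 ± 32.5 FPKM and Aqp9 fell from 14.3 ± 1.69 to 3.64 ± 1.20 FPKM (limma adjusted p = 0.00425 and 3.36e-04). Of 38 carriers that bear other names 3 rose and 10 fell (34.2% called). Among them the ammonium carrier Rhbg fell from 38.9 ± 5.73 to 16.9 ± 3.41 FPKM and the lysolipid carrier Mfsd2a rose from 24.4 ± 2.67 to 56.1 ± 13.8 FPKM (limma adjusted p = 0.00147 and 0.00195). Of the 3 tested Slc27a genes Slc27a3 was higher (1.42 ± 0.34) and Slc27a4 lower (-0.54 ± 0.13).

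At the edge of the level rule, the level that at least 4 libraries reached was 1.01 FPKM for Slc2a9 and 1.03 FPKM for Slc16a5, and both were kept. For Slc2a4rg-ps it was 0.995 FPKM and for Slc25a29 0.982 FPKM, and these were left out. Slc25a29, a mitochondrial carrier of basic amino acids, had 2.40, 2.01, 1.24 and 0.293 FPKM in the knockouts against 0.240 to 0.982 FPKM in the wild types.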

How the data were processed

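RNA of peeled newborn epidermis had been depleted of ribosomal RNA, made into stranded total RNA libraries and sequenced in paired ends, per the labels' protocols. The authors deposited 1 table of FPKM values, with 1 value per gene symbol and library. Per the submitters' processing notes the genome build was mm10. Neither the aligner nor the program that made the values, nor its strand setting, is named in the labels.

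Every listed gene has a value in knockout 1, and missing values elsewhere were taken as 0. Krt1, Krt10, Flg2 and Rn45s, listed at 0 in some libraries and very high in others, were left out of the tests. FPKM holds no counts, so no count model was used and the absolute depth is unknown. Ratios of values under 0.15 FPKM place the depths between 1.00 and 1.45 times that of knockout 1. No counting interval is given.

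Genes with at least 1 FPKM in at least 4 of 8 libraries (3 of 7 or 2 of 4 in fits on fewer libraries) were compared by limma 3.58.1 in R 4.3.3 on log2(FPKM + 1) with a mean-variance trend and Benjamini-Hochberg adjustment over all genes tested. The log2(FPKM + 1) scale understates the change of low genes. The fit was tested on simulated data. Alternatives were other pseudocounts, filters, scalings and weights, covariates, and fits without each library or within title codes.

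Named genes were the 12 called carriers with the highest and the 12 with the lowest log2 change, the 2 with the smallest p in each substrate class, a set given by name, those at the edge of the level rule, and called members as examples. Slc5a1, Slc7a6, Slc11a2, Slc15a2, Slc19a1, Slc19a2, Slc23a2, Slc25a3, Slc25a20, Slc30a4, Slc38a10, Slc52a2, Slc5a6 and Slc4a1ap, and the transport genes without an Slc symbol, were chosen after their values were seen. The kinases Stk39, Oxsr1, Wnk1 and Wnk4 were too. Members and lists were chosen with earlier results of these data known. Substrate classes were assigned mostly by family, and Slc4a1ap was set apart after its row was seen. Positions are from GENCODE vM21 (GRCm38, the same assembly as mm10), in which all 192 symbols were found directly or through a synonym. Some results are not reported here.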

Additional observations from a re-analysis of the deposited data

Results flagged for a closer look

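Among 136 groups of 4 libraries checked, 3 held a library far from the other 3 by Dixon's test at the 95% level, and chance alone is expected to mark about 1 in 20 groups. All 3 concern knockout 4. Slc24a5 stood at 0.5501 FPKM there against 4.09 to 4.77 in the other knockouts. Slc28a3 stood at 16.5 FPKM against 11.7 to 12.5. Slc2a3 was listed at 0 FPKM against 0.162 to 0.194.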

How the results depend on the processing

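Each of the 44 calls kept its direction in all 22 alternatives, 21 planned and 1 added after the table was seen, and 19 of the 44 passed the threshold in every one. The number of called solute carriers ran from 31 to 84. Array weights gave 84 (40 higher and 44 lower) and 3669 called genes in all. With log2(Xist + 1) as a covariate 31 carriers were called, 10 of them higher, and 1141 genes in all. Xist stood at 84.6 FPKM or more in knockouts 1 to 3 and wild type 3 and at most at 1.84 FPKM in the others. Without each library in turn the number called was 32 to 61, the number higher 11 to 28 and the number lower 20 to 33, and all called genes numbered 1123 to 2326. With the title code as a block 56 carriers were called, including all 44. In code 44 alone 31 of the 44 were called, and in codes 11 and 14 alone 27. The first digits of the number that ends each column name, as a block, gave 44 calls, 41 of them shared. Other pseudocounts gave the same 44 calls. The 2 other scalings gave 49 and 51 and moved the median of all genes by under 0.02. The cause of these differences was not tested. FPKM carries no counts, so carriers near 1 FPKM have unknown counting error.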
